A study of Homo sapiens with 6 samples.

Results

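Long noncoding RNA genes and the host genes of small RNAs were followed in the breast cancer line MDA-MB-231, which is human and triple-negative, after the MLL3 gene was targeted with guide RNAs. Members were selected on symbol and level. The symbols were the numbered LINC and SNHG genes, the microRNA host genes (MIR...HG), and MALAT1, NEAT1, GAS5, PVT1 and KCNQ1OT1. Of 271 rows with such a symbol, 111 had a mean of at least 50 normalized read counts over the 6 libraries, in a table of 15706 genes. Beside the symbol, the rule used only the mean level over both groups together, so levels are given as description. The difference between the groups was not part of the rule and was tested. The rule and the tests were, however, chosen with earlier results of these data known. Just inside the limit stood LINC01503 with a mean of 50.9 and LINC02535 with 50.6, and just outside it LINC01088 with 49.3 and MIR3681HG with 49.2. The 111 members comprise 73 LINC genes, 20 small nucleolar RNA (snoRNA) hosts, namely 19 SNHG genes and GAS5, 14 microRNA hosts, and the 4 genes MALAT1, NEAT1, PVT1 and KCNQ1OT1. In GENCODE 29, 74 of them are typed as long intergenic RNA and 19 as processed transcripts, while 3 (MIR1915HG, LINC02693 and SNHG32) are typed as protein coding.

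The 3 libraries labelled MLL3 knockout came from cells given a guide RNA against MLL3, the histone H3 lysine 4 methyltransferase gene with the symbol KMT2C. The 3 control libraries came from cells given a non-targeting guide and labelled as wild type. Both groups were untreated, and the guides and biological replicates are numbered 1 to 3. Whether the cells were clones or pools is not given in the sources used here, so the p-values measure only the spread between these libraries. The libraries held 41240265 to 49514464 recovered reads. KMT2C itself had 1519, 1660 and 1339 normalized counts in the knockout libraries and 1367, 1379 and 1255 in the control libraries, which differ by 0.17 on the log2 scale (SE 0.10, limma adjusted p = 0.205), so its transcript level does not check the label. Of the markers of the line, all 6 expected ones were read, while of 5 markers that should be low or absent ESR1 and PGR had no row and CDH1 had 2.11 to 5.50 counts in the knockout and 3.86 to 7.52 in the control libraries. The other two were read in every library, ERBB2 at 4581 to 5282 counts in knockout and 5612 to 6016 in control libraries, and GATA3 at 426 to 505 against 572 to 674. Summed markers of leukocytes (4 of 5 with a row) ran from 419 to 496 counts in the knockout and from 530 to 844 in the control libraries. Those of fibroblasts (2 of 4) ran from 701 to 810 against 977 to 1092, and those of endothelium (3 of 4) from 166 to 207 against 222 to 292. Their part in the results was not tested. Across all 14598 tested genes with a GC value, the log2 fold change fell with GC content (Spearman's rho -0.673, a description across genes, which are not independent). Calls and the main uncalled members are therefore also given after trend removal, in which splines along GC percent and transcript length were subtracted from each library.

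Long noncoding RNAs act as RNA, not through a protein. MALAT1 gathers in nuclear speckles, NEAT1 is the scaffold of paraspeckles, and KCNQ1OT1 silences neighbouring imprinted genes in cis. Host genes differ from these in that their introns or exons carry a smaller RNA: snoRNAs, which guide the chemical modification of ribosomal RNA, are cut from spliced introns, and microRNAs are cut from the host transcript by DROSHA and DICER1 and then repress messenger RNAs through the seed, bases 2 to 8. The spliced remainder of many SNHG transcripts is degraded by nonsense-mediated decay. MLL3 places the monomethyl mark of enhancers, and enhancers are common sites of noncoding transcription. Only host transcripts were counted here: mature microRNAs and snoRNAs were not measured.

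On the same strand, 19 of the 111 members held 37 microRNA genes, 32 of them with a mature sequence used here. The sequences below, from RefSeq on GRCh38.p14 and written 5′ to 3′ with the seed in capitals, are those of the 6 called members that hold a microRNA gene, with 1 arm shown for each gene. Those of MIR17HG lie on the plus strand within chr13:91350605-91351391, those of MIR100HG on the minus strand within chr11:122099757-122152308, and those of LINC00472 on the minus strand within chr6:71376960-71403621.
miR-17-5p (MIR17HG): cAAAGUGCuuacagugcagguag
miR-20a-5p (MIR17HG): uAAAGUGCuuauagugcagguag
miR-18a-5p (MIR17HG): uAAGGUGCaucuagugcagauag
miR-19a-3p (MIR17HG): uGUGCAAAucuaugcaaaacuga
miR-19b-3p (MIR17HG): uGUGCAAAuccaugcaaaacuga
miR-92a-3p (MIR17HG): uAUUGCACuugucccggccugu
let-7a-5p (MIR100HG): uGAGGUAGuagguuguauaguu
miR-100-5p (MIR100HG): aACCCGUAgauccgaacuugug
miR-125b-5p (MIR100HG): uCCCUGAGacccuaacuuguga
miR-30a-5p (LINC00472): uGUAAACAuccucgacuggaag
miR-30c-5p (LINC00472): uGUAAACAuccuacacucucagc
miR-8081 (LINC01505): cUUGAGUCgugccuuucugaaug
miR-3936 (MIR3936HG): uAAGGGGUguauggcagaugca
miR-1915-3p (MIR1915HG): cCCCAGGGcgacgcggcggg
miR-17-5p and miR-20a-5p share the seed AAAGUGC, miR-19a-3p and miR-19b-3p share GUGCAAA, and the miR-30 arms share GUAAACA. The let-7 seed GAGGUAG of MIR100HG occurs in 2 further hosts of the set, MIRLET7BHG and MIR4458HG, whose microRNAs are shown to compare them with let-7a-5p.
let-7b-5p (MIRLET7BHG): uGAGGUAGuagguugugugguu
miR-4458 (MIR4458HG): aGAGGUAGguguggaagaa

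Many snoRNA hosts are known as terminal oligopyrimidine (TOP) genes, whose transcripts open with a C and a run of pyrimidines, as those of ribosomal proteins do. Among the 17 snoRNA hosts with a RefSeq promoter used here, 5 (29.4%) had a C at the annotated start followed by at least 4 bases that are C or T, against 4.07% of the 35116 promoters in the table. The 5 starts are shown as examples of the motif. The other 12 hosts, GAS5 and SNHG29 among them, had no such start at the annotated base. Among 81 ribosomal protein genes, 44 (54.3%) had one by the same rule, so a miss does not show that a host lacks a TOP start. The first 10 bases precede the start, the capitals mark the run of C and T from the start on, and only the strand of the gene was read (RefSeq, GRCh38.p14).
SNHG5 (chr6:85678714-85678743, minus strand): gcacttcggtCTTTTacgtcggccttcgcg
SNHG12 (chr1:28581854-28581883, minus strand): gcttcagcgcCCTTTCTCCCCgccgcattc
SNHG18 (chr5:9546190-9546219, plus strand): gccgcgccgcCTCCTCCTCCTCCTCCTCCC
SNHG19 (chr16:2155339-2155368, minus strand): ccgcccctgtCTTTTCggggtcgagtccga
SNHG32 (chr6:31834906-31834935, plus strand): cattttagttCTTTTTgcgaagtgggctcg
The E-box CACGTG, which reads the same on both strands, was found in 1 of these 17 promoters (5.88%) and in 7.26% of all promoters, each 300 bases long.

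The limma threshold was passed by 17 noncoding genes in knockout against control libraries: 11 LINC genes, 4 microRNA hosts, MALAT1 and KCNQ1OT1. None of the snoRNA hosts passed it, which does not show that they were level. By limma, 12 of the 111 members were higher and 5 were lower in knockout cells, against 18.9% of all 14618 tested genes higher and 14.4% lower. After trend removal, 5 members rose and 3 fell, against 4.08% and 5.95% of genes, and 6 members were called the same way in both analyses. Quantile normalization moved the split to 9 higher and 8 lower. The libraries of the groups did not overlap for 16 members that were higher and 15 that were lower, against 23.9% and 22.4% of genes. The median log2 fold change was -0.0080 over the members and -0.017 over all tested genes. By class, 7 LINC genes were higher and 4 lower of 73, 3 microRNA hosts were higher and 1 lower of 14, both MALAT1 and KCNQ1OT1 were higher among the 4 others, and none of the 20 snoRNA hosts passed. The higher count fell to 6 without knockout replicate 1 and to 7 without knockout replicate 2. The lower count fell to 2 without either of these, and to 3 without knockout replicate 3, control replicate 1 or control replicate 2.

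**Figure D1:**
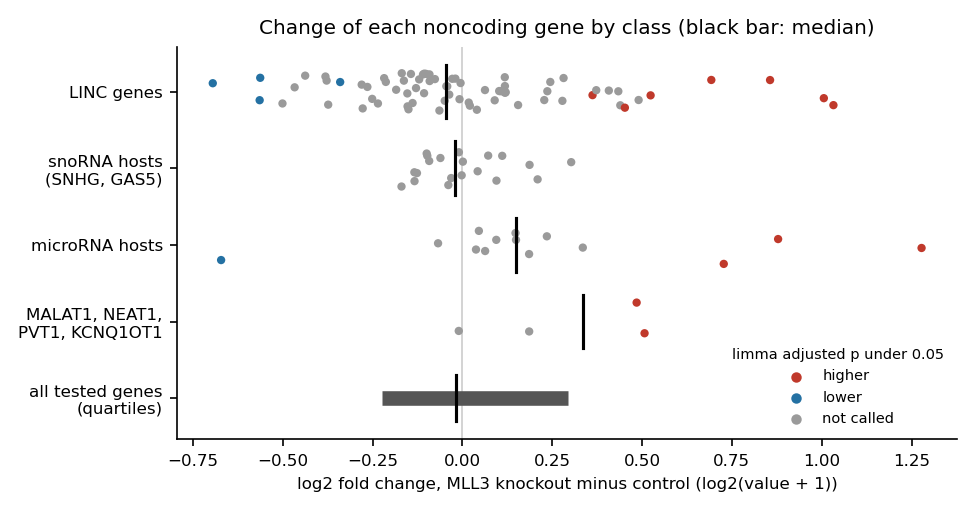
Log2 fold change (x axis, MLL3 knockout minus control, on log2(value + 1)) of each of the 111 noncoding genes, by class (y axis). Each point is a gene, coloured by its call, the black bars are class medians, and the dark bar below spans the quartiles of all tested genes. The 20 snoRNA hosts lie between -0.17 and 0.30, whereas the called LINC genes and microRNA hosts lie outside most of their classes.

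MIR17HG, the host of the miR-17-92 cluster, an oncogenic cluster activated by MYC, showed the largest increase of any member in the deposited values, whereas after trend removal MIR3936HG and LINC01615 stood above it. It had 88.7, 83.3 and 67.9 normalized counts in the knockout libraries, against 24.8, 39.7 and 33.8 in the control libraries. In these bulk libraries more RNA per cell and more cells that express a gene cannot be told apart. The lowest knockout library stood above the highest control library, at 74 to 94 recovered reads in knockout and 23 to 37 in control libraries. The log2 fold change was 1.28 (SE 0.28, 95% interval 0.69 to 1.87, limma adjusted p = 0.00276), and it was 0.87 with the trend removed (limma adjusted p = 0.0586). MYC did not pass the test, with a log2 difference of -0.094 (SE 0.11, limma adjusted p = 0.536). Among 15 reported targets of the cluster, 3 were higher and 2 lower, beside 18.9% and 14.4% of all tested genes. ITCH, an E3 ubiquitin ligase, was among the higher ones (0.40, limma adjusted p = 0.00627). E2F1, a cell cycle transcription factor, was the lower target with the smaller p, with a log2 fold change of -0.46 (limma adjusted p = 0.00263). With the trend removed the targets gave 0 higher and 2 lower, by limma, beside 4.08% and 5.95% of genes, with 6 of the 15 values above zero. ITCH then stood at -0.017 (limma adjusted p = 0.902), and E2F1 still passed at -0.22 (limma adjusted p = 0.0441).

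MIR100HG, the host of miR-100, let-7a-2 and miR-125b-1, spans chr11:122028327-122556721 on the minus strand and has the highest counts of the called microRNA hosts, though over a long exonic length. Its normalized counts were 1184, 1052 and 962 in the knockout libraries and 663, 636 and 626 in the control libraries. All 3 control libraries lay close together, and every knockout library exceeded all of them. The log2 fold change was 0.73 (SE 0.11, limma adjusted p = 1.7e-04), and 0.33 with the trend removed (SE 0.078, limma adjusted p = 0.0216). It passed in all 17 alternatives, with values from 0.33 to 0.80 and adjusted p of at most 0.0417. The hosts that share its let-7 seed did not pass: MIR4458HG had 467, 395 and 359 counts in knockout and 405, 384 and 386 in control libraries, and MIRLET7BHG had 149, 149 and 183 against 142, 208 and 157. Their groups overlapped, and their log2 fold changes were 0.046 and -0.068, with 95% intervals of -0.23 to 0.33 and -0.46 to 0.32. After trend removal MIR4458HG stood at -0.35 (limma adjusted p = 0.0529) and MIRLET7BHG at 0.15 (limma adjusted p = 0.637).

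MIR1915HG, the host of miR-1915 (chr10:21492658-21497262, minus strand), was the microRNA host that fell. It had 410, 336 and 440 normalized counts in the knockout libraries, against 617, 582 and 684 in the control libraries. The groups did not overlap. Its log2 fold change was -0.67 (SE 0.13, limma adjusted p = 0.0012) and -0.52 with the trend removed (limma adjusted p = 0.0148), and it passed in all 17 alternatives. GENCODE 29 types this gene as protein coding, so the count may hold a coding transcript as well as the host.

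MIR3936HG rose. The knockout libraries held 108, 127 and 100.9 normalized counts and the control libraries 68.9, 77.3 and 40.6, with no overlap. Its log2 fold change was 0.88 (SE 0.26, limma adjusted p = 0.0147), and 1.03 with the trend removed (limma adjusted p = 0.0315). The call was lost without knockout replicate 1 (0.90, adjusted p = 0.0553), knockout replicate 2 (0.79, adjusted p = 0.0753) or control replicate 3 (0.60, adjusted p = 0.0759), each by limma. It shares exon sequence with the carnitine transporter genes SLC22A4 and SLC22A5 on the opposite strand. The larger of the 2 overlaps covers 7.68% of its exonic length. Without a stated strand setting these reads cannot be told apart. SLC22A4, the nearest tested protein-coding gene, had a log2 fold change of -0.055 (limma adjusted p = 0.811). No value is given here for SLC22A5.

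The other 10 microRNA hosts did not pass, with log2 fold changes from -0.068 to 0.34 and 95% intervals reaching from -0.46 to 0.87. MIR137HG, the host of miR-137, was the only one of them whose groups did not overlap. Its counts were 602, 650 and 676 in knockout libraries and 541, 581 and 572 in control libraries, a log2 difference of 0.19 (SE 0.11, limma adjusted p = 0.214), and -0.059 after trend removal. It shares 6.89% of its exonic length with DPYD, the gene of the enzyme that degrades uracil, on the same strand, which was higher at 0.55 (limma adjusted p = 2.3e-04). MIR210HG, whose microRNA responds to hypoxia, averaged 222 ± 8.01 counts in knockout and 209 ± 20.1 in control libraries (SD, n = 3 each). MIR22HG averaged 151 ± 22.4 counts in knockout and 151 ± 44.4 in control libraries. MIR3142HG, which carries miR-146a, a brake on NF-kappaB signalling, ranged from 42.2 to 87.7 counts in knockout and from 44.0 to 65.7 in control libraries. Its interval of -0.40 to 0.87 was the widest in the class, so that no change and a large increase both lie within it.

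No snoRNA host was called higher or lower. Of the 20, none passed by limma, beside 18.9% higher and 14.4% lower of all 14618 tested genes. None had an unadjusted limma p under 0.05, beside 6458 of all tested genes. None passed in the authors' deposited table, by edgeR or by DESeq2. All 12 hosts with a mean of 1000 or more had log2 fold changes from -0.13 to 0.19, and their 95% intervals stayed within -0.33 to 0.38. Of the 8 less abundant hosts, 5 had intervals within 0.5 on either side of zero, SNHG18 reached 0.62, and SNHG9 and SNHG21 were wider, down to -0.63 and up to 0.88. SNHG21 had 84.5, 98.4 and 55.1 counts in knockout and 105.6, 72.0 and 38.6 in control libraries, a wide spread within both groups. With the trend removed the 20 values ran from -0.26 to 0.37 and none passed (smallest limma adjusted p = 0.0619). That is near the shares of 4.08% higher and 5.95% lower over all tested genes. Over these 20 genes Spearman's rho between GC content and log2 fold change was -0.535 as deposited and 0.693 after trend removal, as a description, so the subtracted values still follow GC content, in the opposite direction. Over the class, counts summed to 56660, 52730 and 51420 in the knockout libraries and to 50690, 57090 and 56700 in the control libraries, with overlap between the groups.

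GAS5, a host of box C/D snoRNAs named for its accumulation in growth-arrested cells, had 8093, 7013 and 6799 normalized counts in knockout libraries and 6118, 7444 and 7758 in control libraries. The groups overlapped throughout, and the log2 fold change was 0.042 (95% interval -0.16 to 0.24, limma adjusted p = 0.765). Its sign turned to -0.20 with the trend removed. SNHG29, the host with the highest counts, had 14622, 13875 and 13423 counts in knockout and 13108, 15282 and 14747 in control libraries. SNHG5 had 11346, 10314 and 9965 counts in knockout and 10546, 12068 and 11920 in control libraries, a log2 fold change of -0.13 (95% interval -0.30 to 0.047). In both, the groups overlapped. SNHG1, host to 7 annotated snoRNAs, was the only snoRNA host with all knockout libraries above all control libraries. Its counts were 3060, 2602 and 2698 in knockout libraries, against 2535, 2501 and 2297 in control libraries, a log2 difference of 0.19 (SE 0.091, limma adjusted p = 0.12), and it stood at -0.037 with the trend removed. SNHG7 was the reverse, at 2997, 2995 and 3028 counts in knockout and 3083, 3202 and 3337 in control libraries, with a log2 fold change of -0.092 (limma adjusted p = 0.403) and 0.15 with the trend removed. SNHG18 had the largest value of the class, 0.30 (limma adjusted p = 0.125), with 289, 326 and 312 counts in knockout and 228, 293 and 234 in control libraries, 1 control library being within the knockout range, and it stood at 0.37 after trend removal (limma adjusted p = 0.115).

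**Figure D2:**
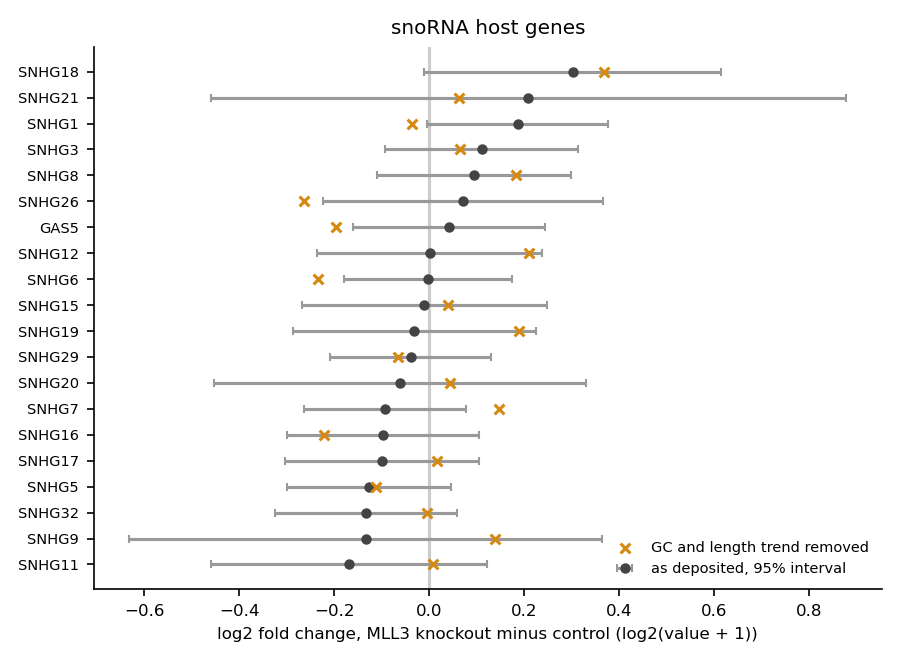
Log2 fold change (x axis, MLL3 knockout minus control) of the 20 snoRNA hosts (y axis). Dots and bars are the limma estimates from the deposited values with 95% intervals, and crosses are the estimates after GC and length trend removal. The abundant hosts have narrow intervals around zero, and SNHG21 and SNHG9 have the widest.

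Per kilobase of exon, snoRNA hosts had the highest median level of the 4 classes of noncoding gene. The mean over all 6 libraries, per kilobase, was 3930 normalized counts for SNHG5, 3771 for SNHG29, 2363 for SNHG6, 2288 for SNHG8 and 1984 for GAS5. MALAT1 stood at 671 and NEAT1 at 638, while KCNQ1OT1, annotated as an unspliced transcript of 91667 bases, had 1.70. Class medians of these levels were 433 for snoRNA hosts, 416 for MALAT1, NEAT1, PVT1 and KCNQ1OT1, 46.1 for microRNA hosts and 48.0 for LINC genes, beside 180 for all tested genes. These are descriptions, since the level chose the members. Together the members took 0.237% to 0.243% of the counts of each knockout library and 0.22% to 0.23% of those of each control library.

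MALAT1, the nuclear speckle RNA (chr11:65497688-65506516), rose. It had 6592, 6663 and 7335 normalized counts in knockout libraries and 3755, 5421 and 5772 in control libraries. The groups did not overlap, although control replicate 1 stood well below the other control libraries. The log2 fold change was 0.48 (SE 0.12, limma adjusted p = 0.00598), and 0.086 with the trend removed (limma adjusted p = 0.781), where it did not pass. NEAT1, transcribed beside it on the same strand, had 13835, 15403 and 17179 counts in knockout and 13269, 13011 and 14406 in control libraries. Knockout replicate 1 lay within the control range, and NEAT1 did not pass at 0.19 on the log2 scale (SE 0.086, limma adjusted p = 0.104). It passed with quantile normalization (0.26, limma adjusted p = 0.0278), and it stood at -0.089 after trend removal.

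KCNQ1OT1, the antisense RNA of the imprinted KCNQ1 domain, rose. It had 186, 186 and 176 normalized counts in knockout libraries and 155, 126 and 108 in control libraries, with no overlap. That is 0.51 on the log2 scale (SE 0.18, limma adjusted p = 0.0408), and 0.15 with the trend removed (limma adjusted p = 0.572). The call was also lost, by limma, without knockout replicate 1 (adjusted p = 0.122), knockout replicate 2 (0.129), knockout replicate 3 (0.0632), control replicate 2 (0.0916) or control replicate 3 (0.16), with values from 0.38 to 0.53. CDKN1C, an inhibitor of cyclin-dependent kinases in the same imprinted domain and the nearest tested protein-coding gene, was lower at -0.41 (SE 0.12, limma adjusted p = 0.0144), and did not pass after trend removal (-0.16, limma adjusted p = 0.367). PVT1, the neighbour of MYC on chromosome 8, had 1030, 1088 and 1048 counts in knockout and 877, 1190 and 1150 in control libraries. Its groups overlapped, with a log2 fold change of -0.010 (95% interval -0.25 to 0.23).

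Among LINC genes the clearest increase was in LINC00641, a processed transcript at chr14:21200079-21206900 on the minus strand. Its normalized counts were 262, 275 and 204 in knockout libraries, against 124, 131 and 110 in control libraries, with no overlap. The log2 fold change was 1.01 (SE 0.18, limma adjusted p = 5.4e-04), and 0.68 with the trend removed (limma adjusted p = 0.0163). It passed in all 17 alternatives. LINC01505 rose by a similar amount, with 137, 186 and 124 counts in knockout and 58.2, 87.0 and 71.5 in control libraries. Its log2 fold change was 1.03 (SE 0.23, limma adjusted p = 0.00268), and with the trend removed 0.61 (limma adjusted p = 0.106).

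LINC00472, which carries the miR-30a and miR-30c-2 genes, was the most abundant LINC gene. It had 3037, 2951 and 2971 normalized counts in knockout libraries and 2645, 2047 and 2315 in control libraries. The knockout libraries lay close together, and all stood above the control libraries, whose SD was 299. The log2 fold change was 0.36 (SE 0.096, limma adjusted p = 0.00888), and 0.34 with the trend removed (limma adjusted p = 0.0224). Without control replicate 2 it was 0.27 and did not pass (limma adjusted p = 0.0662). The next 3 LINC genes by level did not pass. LINC02009 had a log2 fold change of 0.12, LINC02693 of -0.10 and LINC00205 of -0.092, each with overlapping groups.

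LINC01615 (chr6:169158092-169162924, minus strand) had 127, 113 and 89.9 normalized counts in knockout and 67.9, 45.1 and 69.5 in control libraries. No knockout library fell to the control range. On the log2 scale the difference was 0.86 (SE 0.24, limma adjusted p = 0.0133), and 1.02 with the trend removed (limma adjusted p = 0.0173). Leaving out knockout replicate 1 (0.75, adjusted p = 0.085), knockout replicate 2 (0.83, adjusted p = 0.0563) or control replicate 2 (0.66, adjusted p = 0.0622) ended the limma call. Smaller increases passed in LINC02615 (0.69), LINC00705 (0.52) and LINC01806 (0.45), with limma adjusted p of 0.0485, 0.0295 and 0.0247. None of these 3 passed with the trend removed, with limma adjusted p of 0.141, 0.23 and 0.85. Leaving out knockout replicate 1 ended all 3 calls, at log2 fold changes of 0.56, 0.37 and 0.35 (limma adjusted p = 0.204, 0.184 and 0.146), and control replicate 3 those of LINC00705 (0.47, adjusted p = 0.0833) and LINC01806 (0.43, adjusted p = 0.0605). LINC01806 was lost also without knockout replicate 2 (0.51, adjusted p = 0.0569), and LINC02615 without knockout replicate 2, control replicate 1 or control replicate 2 (limma adjusted p = 0.15, 0.0625 and 0.134). LINC00705 shares 12.6% of its exonic length with MANCR, a noncoding gene on the opposite strand.

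LINC01003 was the lower LINC gene with the smallest p, and its nearest tested protein-coding gene is KMT2C itself. It lies at chr7:152463786-152465549 on the plus strand, 27781 bases from KMT2C, which is on the opposite strand. It had 685, 697 and 622 normalized counts in knockout libraries and 1155, 926 and 898 in control libraries. All knockout libraries lay below all control libraries. LINC01003 changed by -0.56 on the log2 scale (SE 0.12, limma adjusted p = 0.00185), and by -0.31 with the trend removed (limma adjusted p = 0.153), where it did not pass. Leaving out any library kept the call.

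LINC02323, LINC01836 and LINC00863 also fell. LINC02323 had 37.0, 47.0 and 49.5 normalized counts in knockout and 75.4, 61.2 and 81.1 in control libraries, a log2 fold change of -0.69 (limma adjusted p = 0.0487). LINC01836 had 107, 110 and 83.5 counts in knockout and 139, 140 and 164 in control libraries, a log2 fold change of -0.56 (limma adjusted p = 0.0353). LINC00863 had 455, 476 and 465 counts in knockout and 633, 581 and 556 in control libraries, a log2 fold change of -0.34 (limma adjusted p = 0.0329). The groups did not overlap in these 3 genes, but none passed with the trend removed, at -0.43, -0.33 and -0.22 (limma adjusted p = 0.265, 0.272 and 0.19). LINC02323 lost its call without any of the 6 libraries (-0.81 to -0.57). LINC01836 lost it without every library except control replicate 1 (-0.63 to -0.44 where lost), and LINC00863 without every library except control replicate 3 (-0.36 to -0.29 where lost).

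**Figure D3:**
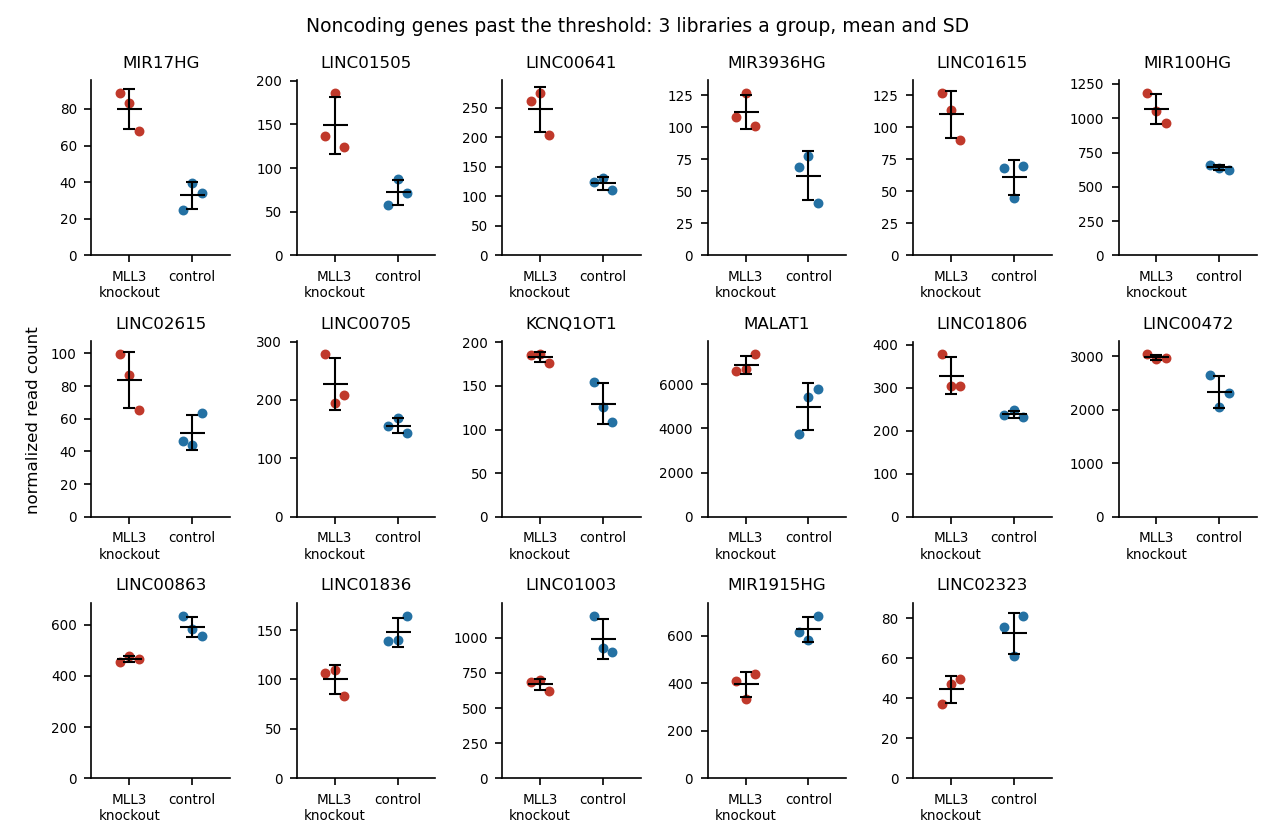
Normalized read counts (y axis, from 0) of the 17 noncoding genes past the limma threshold, in 3 MLL3 knockout libraries (red, left) and 3 control libraries (blue, right) per gene. Points are libraries, and bars give the mean and SD. From MIR17HG to LINC00472 every knockout library lies above every control library, and from LINC00863 to LINC02323 every one lies below.

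The other 62 LINC genes did not pass by limma, with log2 fold changes from -0.50 to 0.49. The authors' deposited table and DESeq2 each had 5 LINC genes lower, against 4 by limma. Of the 62, 11 had groups that did not overlap, 2 with higher and 9 with lower knockout libraries. Over all 73 LINC genes, called ones included, 9 were higher and 13 lower without overlap, beside 23.9% and 22.4% of all tested genes. LINC01184 was among the 11 uncalled ones. It had 1008, 991 and 917 normalized counts in knockout libraries and 1008, 1078 and 1150 in control libraries. Knockout replicate 1 and control replicate 1 were level, and the log2 fold change was -0.15 (limma adjusted p = 0.266). With the trend removed it was -0.57 and passed (SE 0.088, limma adjusted p = 0.00315), at a GC content of 35.6%, the lowest of all members. LINC00662 was the other gene that passed only after trend removal, at -0.42 (limma adjusted p = 0.0391), against -0.0080 as deposited. Its GC content was 35.9%. Both were chosen after their values were seen.

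Base composition and level moved with these calls. Among the 40 members below 45% GC, 8 were higher and none lower, whereas 46.9% of all tested genes below 45% GC were higher. Among the 21 members of 55% GC or more, 3 were lower and none higher, whereas 36.3% of such genes were lower. Over the 111 members Spearman's rho between GC content and log2 fold change was -0.484, and 0.239 with the trend removed, as a description across genes. The members also had lower counts, with a median of the mean level of 177, against 922 over all tested genes. Their median SE was 0.181, against 0.115 over all tested genes. Among members with a mean of 50 to 200 counts, 8 were higher and 2 lower of 59, beside 10.4% and 4.2% of genes at that level. Between 200 and 1000 counts, 2 were higher and 3 lower of 32, beside 25.2% and 8.94% of genes. At 1000 counts or more, 2 of 20 (MALAT1 and LINC00472) were higher and none lower, beside 22.8% and 23.7% of genes. The part of GC content and of level in the members' counts was not tested.

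**Figure D4:**
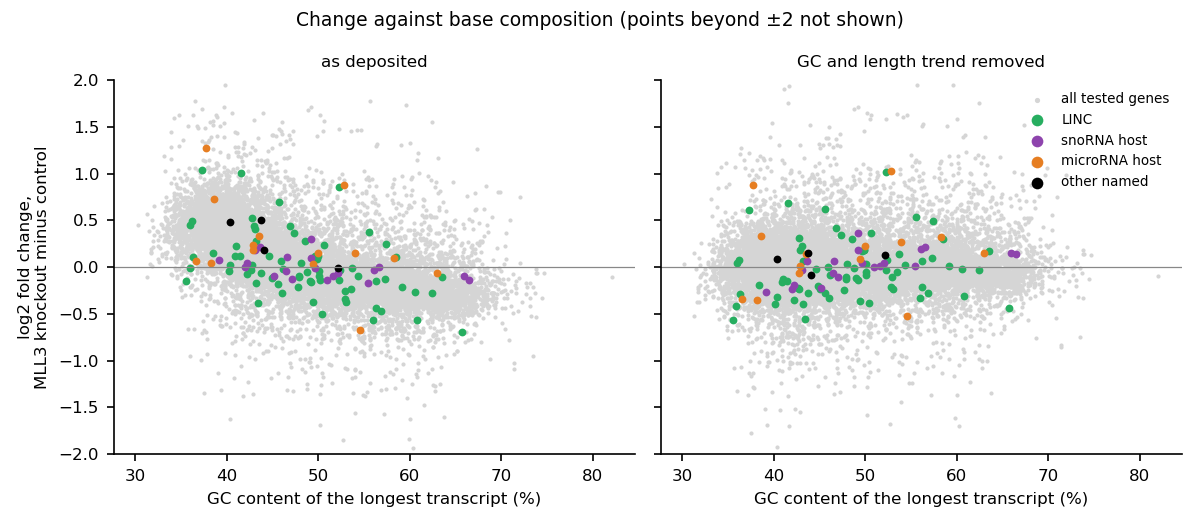
Log2 fold change (y axis, MLL3 knockout minus control) against the GC content of the longest transcript (x axis, percent), as deposited (left) and after GC and length trend removal (right). Small grey points are all tested genes, and larger points are the noncoding genes by class. The downward slope at left (Spearman's rho -0.673 over all genes and -0.484 over the members) is gone for all genes at right.

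Neighbouring protein-coding genes were read beside each member. Over all tested genes, 18.9% were higher and 14.4% lower. Of the 12 higher members, 2 had a higher nearest neighbour, 2 a lower one and 8 one that did not pass, and of the 5 lower members 2 had a lower neighbour and 3 one that did not pass. LINC01615 and THBS2, a secreted matrix glycoprotein gene on the same strand, both rose, at 0.86 and 0.92 (limma adjusted p = 0.0133 and 0.0456). THBS2 lies 52856 bases away and had a mean of only 31.4 counts. It did not pass with the trend removed (0.98, limma adjusted p = 0.0712). LINC01806 and TANK, an adaptor of NF-kappaB signalling, rose at 0.45 and 0.35. LINC01836 and PTBP1, a splicing repressor gene, both fell, at -0.56 and -0.34, as did LINC02323 and ANKRD9 (-0.69 and -0.30). Of these neighbours TANK, PTBP1 and ANKRD9 did not pass with the trend removed either.

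In 17 members the nearest tested protein-coding gene lies on the opposite strand and starts within 1000 bases of the member's start. Only the nearest gene was read, so a member with another such partner is not counted. LINC00863, a called member typed as a bidirectional promoter RNA, was read only beside NUTM2D on the same strand. None of the 17 passed, and 5 of their partners were higher and 4 lower by limma, beside 18.9% and 14.4% of all tested genes. With 17 pairs these counts are given as a description. MIR4453HG, which starts 201 bases from FBXW7, a ubiquitin ligase subunit gene, had a log2 fold change of 0.34 (limma adjusted p = 0.212), whereas FBXW7 was higher at 0.59 (limma adjusted p = 0.00184) and stayed so with the trend removed (0.49, limma adjusted p = 0.0185). MIR22HG had 0.038 beside -0.45 for WDR81 (limma adjusted p = 0.00617), and SNHG19 had -0.031 beside -0.35 for TRAF7 (limma adjusted p = 0.00592). LINC01184 had -0.15 beside 0.48 for the ion cotransporter gene SLC12A2 (limma adjusted p = 0.00653). Whether member and partner differ was not tested, and of the 9 partners that passed, FBXW7 alone passed with the trend removed.

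Genes that process or bind these RNAs were also read. For each list, the shares over all tested genes were 18.9% higher and 14.4% lower, and 4.08% and 5.95% after trend removal. Of 21 microRNA processing and Argonaute genes, 6 were higher and 2 lower, and after trend removal 2 were higher and 2 lower. Their median log2 fold change was -0.015, beside -0.017 for all tested genes. DICER1, which cuts the precursor hairpin, was higher at 0.67 (limma adjusted p = 9.2e-05), and TUT7, which adds uridine to let-7 precursors, was higher at 0.85 (limma adjusted p = 4.6e-05). Both passed also with the trend removed, at 0.23 and 0.50 (limma adjusted p = 0.0441 and 0.00694). DGCR8, the partner of DROSHA, was lower at -0.29 and did not pass after trend removal. Of 17 snoRNP proteins and assembly factors, 3 were higher, among them the core protein NOP58 (0.59), and 3 lower, among them the methyltransferase fibrillarin, FBL (-0.26), and after trend removal 2 were higher and 2 lower. NOP58 passed with the trend removed (0.29, limma adjusted p = 0.0155) and FBL did not (-0.074). Of 14 nonsense-mediated decay factors, 3 were higher and 3 lower, and 2 higher and 1 lower after trend removal. UPF2 was higher at 0.85 (0.47 with the trend removed, limma adjusted p = 0.00697), and UPF1, the central helicase, was lower at -0.34, which did not pass after trend removal.

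For each list that follows, the shares over all tested genes were 18.9% higher and 14.4% lower, and 4.08% and 5.95% with the trend removed. Of 15 paraspeckle proteins, which bind NEAT1, 4 were higher and 5 lower, and 0 higher and 1 lower with the trend removed. Of 14 other TOP genes, 5 were higher, such as NPM1 (0.36), and 1 was lower, EIF3F (-0.21). With the trend removed the TOP genes gave 0 higher and 3 lower. Of 11 genes of the MYC network, 2 were higher, such as MGA (0.83, and 0.47 with the trend removed), and 3 were lower. After trend removal the MYC network gave 1 higher and 0 lower by limma. Of 18 further named noncoding RNA genes outside the set, 3 were higher and none lower, and 1 higher and 1 lower after trend removal. TUG1 was higher at 0.52 (limma adjusted p = 9.5e-04, and 0.25 with the trend removed, limma adjusted p = 0.0364) and NORAD, a decoy of Pumilio proteins, at 0.38 (limma adjusted p = 0.00437, and 0.059 with the trend removed).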

How the data were processed

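RNA from 6 MDA-MB-231 cultures was sequenced. The authors deposited 1 table of 15706 genes with a normalized read count per library, a signal made by dividing reads by 1 size factor per library, and, per the file headers, their log2 fold change with its standard error, a Wald score, and p-values. Their adjusted p-value is blank for 2337 genes, none of them a member. Upstream, per the submitters' processing notes, stand GRCh38.p13, DESeq2 1.30.1, featureCounts 1.5.0, STAR 2.4.0 and FastQC. RNA selection (poly(A) or depletion), strand setting and annotation release, not given in the sources used, bear on unspliced, nuclear and antisense transcripts. Dividing each library by the worth of 1 read gave whole reads for 100% of values within 0.01.

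Genes with a mean of at least 10 were tested on log2(value + 1) in limma 3.58.1 under R 4.3.3, its variance prior following the mean, 3 knockout against 3 control libraries, two-sided, with Benjamini-Hochberg adjustment over all 14618 genes and a threshold of 0.05. Fold changes on this scale understate those of low genes. Trend removal subtracted, per library, splines of 5 terms each along GC percent and log2 length of the longest transcript (GENCODE 29, in which 15681 gene IDs were found). edgeR 4.0.16 and DESeq2 1.42.0 were run on recovered reads. Other alternatives were pseudocounts of 0.5 and 5, no filter, a mean of at least 50, quantile normalization, the authors' deposited fold changes, a replicate block and leaving out each library. The limma script was tested on simulated data. Members, gene lists and tests were chosen with earlier results of these data known. Named genes were KMT2C, the 5 genes given by symbol, the microRNA and snoRNA hosts, called LINC genes without overlap and the 4 most abundant LINC genes, up to 2 list genes per direction by adjusted p, and overlapping or nearest protein-coding genes. Sequences are from RefSeq. For 82 of 111 members a promoter was matched.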

Additional observations from a re-analysis of the deposited data

How the results depend on the processing

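Members higher and lower numbered 12 and 5 as reported. Trend removal gave 5 and 3, the replicate block with trend removal 5 and 2, and quantile normalization 9 and 8. Leaving out a library gave 6 to 13 higher and 2 to 5 lower. Genes called numbered 4859 as reported, 1463 with trend removal, 1313 with the replicate block and trend removal, and 2143 to 6168 with a library left out. Pseudocounts of 0.5 and 5, a mean of at least 50, the authors' deposited table and DESeq2 kept all 17 calls. The authors' table and DESeq2 each called 12 members higher and 6 lower, with 5 LINC genes lower against 4 as reported. By edgeR 11 were higher and 5 lower, and 4 of the lower calls were those reported. Without a filter and by edgeR the LINC02323 and LINC02615 calls were lost, and quantile normalization lost those of KCNQ1OT1, LINC00705, LINC01806 and LINC02615.

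Among the members and genes recomputed under every alternative (the called members, NEAT1, GAS5, PVT1, KMT2C and the list genes named by rule), signs turned, with and without the replicate block, after trend removal for GAS5 (-0.197), NEAT1 (-0.0888), PVT1 (0.131), KMT2C (-0.0388), ITCH (-0.0168), PIH1D1 (0.019) and ZNHIT6 (-0.0991), none of which passed. Leaving out a library gave -0.0619 to 0.109 for GAS5 and -0.148 to 0.0715 for PVT1. The cause was not tested beyond the trend that was subtracted.

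The replicate numbers were not taken as pairs. Deviations of same-numbered libraries correlated at 0.0658, 0.00629 and 0.129, others at -0.0994 to 0.0272, and knockout replicate 2 correlated best with control replicate 1. With the replicate block 13 members were higher and 5 lower (6265 genes called), NEAT1 and SNHG1 being gained and LINC02615 lost.

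Depth limits the least abundant members, read with as few as 305 reads over the 6 libraries. Counting error for them adds to the spread between replicates, and a miss there does not show that a gene was level.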
